A study of Homo sapiens with 10 samples.

Results

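Cells of the human melanoma line MDA-MB-435 that had been transduced with the integrin chain ITGB4 were compared with untreated cells of the same line. The comparison takes 4 of the 10 bead arrays of the experiment, 2 of ITGB4 cells and 2 of untreated cells, as their labels name them. The other 6 arrays were of cells exposed to HGF, the hepatocyte growth factor, with 2 arrays at each of 1 h, 6 h and 24 h, and they enter here through the normalisation, the choice of probes and the shared estimate of the spread, and beside the control probes described below. All cells were kept in standard growth conditions, and the study describes the ITGB4 cells as a stable up-regulation that served as a positive control. The vector, the time since transduction, and whether the cells were 1 clone or a pool are not given in the sources used here, and the untreated cells are not described as carrying an empty vector. An effect of transduction or selection and an effect of ITGB4 therefore cannot be told apart. The 2 samples of a group are called biological duplicates, and p-values measure the spread between such duplicates.

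ITGB4 encodes the beta chain that pairs with integrin alpha-6 in the receptor for laminin-332. In epithelia this receptor anchors hemidesmosomes, where the long cytoplasmic tail of the beta chain binds plectin and thereby the keratin filaments. In carcinoma cells the same tail can work as a signalling platform beside receptor tyrosine kinases such as MET, EGFR and ERBB2. The question of the comparison was what else changed in RNA when this chain was present.

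Each probe is read as the average brightness over its beads on an array, and a detection score from 0 to 1 says how far it stands above negative controls. Probes that reached a score of 0.99 on any of the 10 arrays were kept, which left 14018 probes of 24105 (58.2%). Of the 24105 probes, 42.4% and 49% were detected on the ITGB4 arrays, against 47.5% and 47.7% on the untreated arrays. The signals given below were quantile normalised, in arbitrary units, with replicate 1 before replicate 2, and a normalised signal of 89.6 lay at the detection limit. These signals still hold the array background, so a difference of a dim probe on the log2 scale is smaller than that of its RNA.

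The untreated arrays were not alike. The lower quartile of the detection score over probes was 0.265 and 0.375 on the ITGB4 arrays, against 0.0199 on untreated replicate 1 and 0.291 on untreated replicate 2. Untreated replicate 1 shared its low value with replicate 1 of each HGF time (0.00814 to 0.0225). Across kept probes, the mean of the ITGB4 arrays lay a median of 0.09 (log2) from untreated replicate 2 and 0.17 from untreated replicate 1. For gene lists whose median changed sign with this, the value against either untreated array is given below.

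ITGB4 itself was the single probe that passed the test. Its probe (GI_21361206-S) had signals of 6788 and 5023 on the ITGB4 arrays, against 61.1 and 62.5 on the untreated arrays, where it was not detected. The log2 difference was 6.56 ± 0.17 (SE, n = 2 arrays per group), with a 95% interval of 6.20 to 6.93 (limma, adjusted p = 8.6e-11). It was 6.55 against untreated replicate 2 alone and 6.58 against untreated replicate 1 alone. Measured against the detection limit, the level was at least 64.5-fold higher in ITGB4 cells. ITGB4 RNA was thus detected on both arrays labelled as ITGB4 and on neither untreated array.

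Another pair of probes separated the ITGB4 arrays from all others. These are the control probes neo1 and neo2, which lie outside the gene set. The files do not say what they detect, and elsewhere the name stands for the neomycin resistance gene. In scanner units, neo1 read 2822.4 and 2146.7 on the ITGB4 arrays, against 8580.5 and 11356.2 on the untreated arrays. The neo2 probe read 5072.2 and 4253.1 on the ITGB4 arrays, against 12085 and 16779 on the untreated arrays. The 6 HGF arrays lay with the untreated cells, from 9293.5 to 12184 for neo1 and from 13663 to 18155.1 for neo2. The other 20 control probes stayed between 49 and 100.6 on every array. With the control probes added to the fit, a choice made after their values were known, the log2 difference between ITGB4 and untreated cells was -1.91 ± 0.21 for neo1 (SE, n = 2 per group, limma, adjusted p = 0.004) and -1.57 ± 0.19 for neo2 (adjusted p = 0.006). Both calls were kept with the low or high detection score of the arrays as a block (adjusted p = 1.7e-05 for neo1 and 5.7e-05 for neo2), with median scaling (0.00022 and 0.0033) and without untreated replicate 1 (0.02 and 0.027). Both ended without untreated replicate 2, where the differences were -1.80 and -1.46 (adjusted p = 0.07 and 0.13), and without ITGB4 replicate 2, where they were -1.73 and -1.45 (0.12 and 0.19). Without ITGB4 replicate 1 the differences were -2.08 and -1.70, and the neo2 call ended (0.058). On the value table they were -1.74 and -1.41, and neither passed (0.35 and 0.36). Of the 10 arrays, the 2 of ITGB4 cells were the lowest for both probes, and the cause was not tested.

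**Figure D1:**
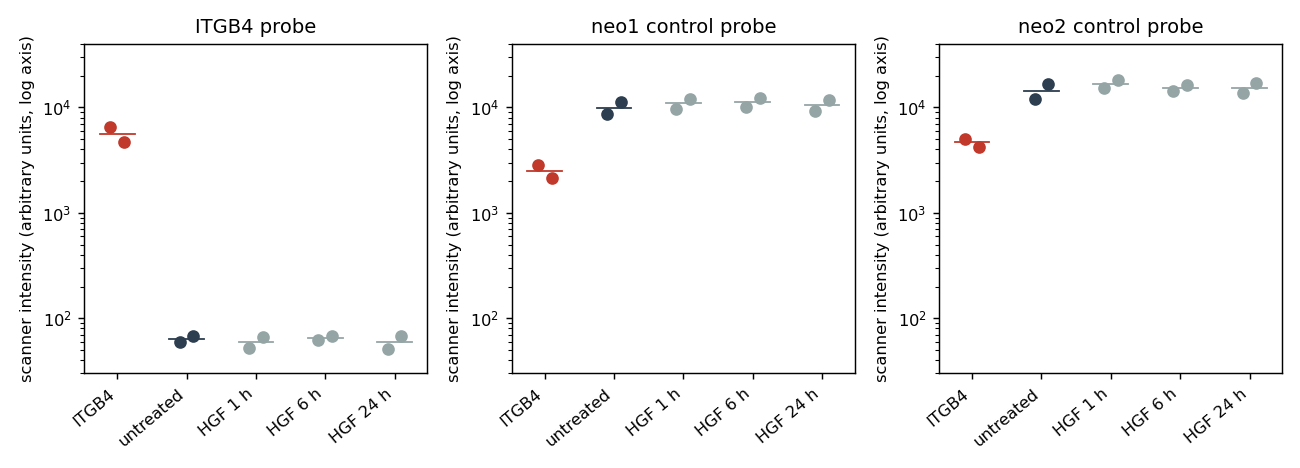
Scanner intensity (arbitrary units, log axis) of the ITGB4 probe and of the control probes neo1 and neo2, with a point for each array and a line for the mean of the 2 arrays of a group. The ITGB4 arrays stand at 6528.1 and 4700.9 for ITGB4, against 59.1 and 68.1 on the untreated arrays, and below all other arrays for neo1 (2822.4 and 2146.7) and neo2 (5072.2 and 4253.1).

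Across the 14018 kept probes, 1 (0.00713%) was called higher at an adjusted p under 0.05 and 0 (0%) lower. At an unadjusted p under 0.05 by limma there were 117 (0.835%), 57 of them higher and 60 lower in ITGB4 cells. If no probe differed, evenly spread p-values would give 701. The p-values of this fit were thus not evenly spread, and the 117 do not measure how few probes changed. That count was 46 without untreated replicate 1, 485 without untreated replicate 2, and 483 with the detection score of the arrays as a block. The second smallest p was 0.00026, which adjusts to 1. The log2 difference was over 1 for 2 probes, ITGB4 and COL8A1, and under -1 for 0. It was over 0.5 for 27 probes and under -0.5 for 36, and its 5th and 95th percentiles were -0.27 and 0.25. The median absolute difference between the group means, 0.1, was smaller than that between the 2 ITGB4 arrays (0.16) or the 2 untreated arrays (0.19). Both ITGB4 arrays lay above both untreated arrays for 1909 probes (13.6%) and below both for 1698 (12.1%).

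**Figure D2:**
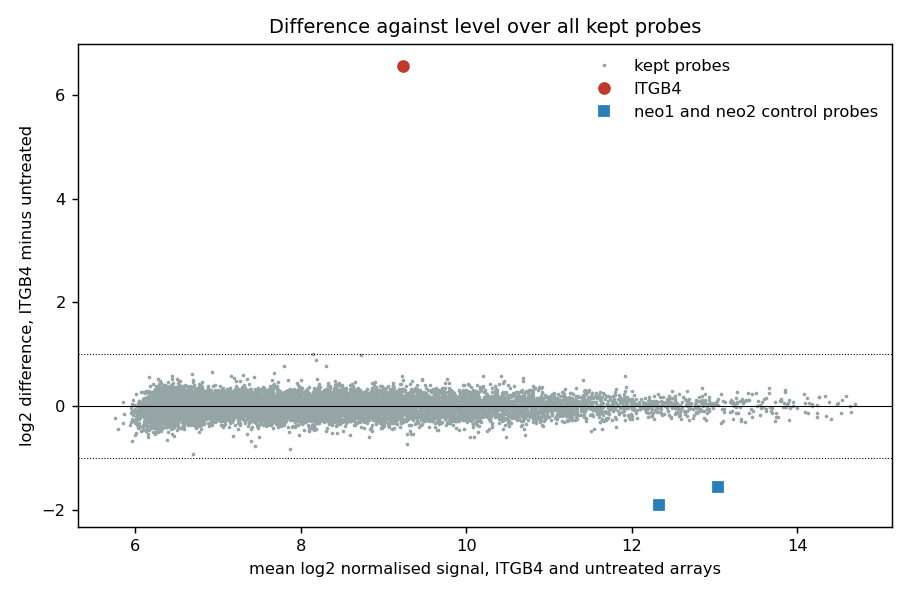
Log2 difference (ITGB4 minus untreated) against the mean log2 normalised signal of the 4 arrays for each of the 14018 kept probes, with dotted lines at 2-fold. ITGB4 stands alone at 6.56, the control probes neo1 and neo2 lie at -1.91 and -1.57, and the 5th and 95th percentiles of all kept probes are -0.27 and 0.25.

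The size of change that these arrays could have missed follows from the standard errors. The median SE of a difference was 0.18 (5th to 95th percentile 0.15 to 0.25), and the median 95% interval extended 0.39 to either side. Taken 1 probe at a time, the interval lay within 2-fold in either direction for 13887 probes (99.1%) and within 1.5-fold for 9874 (70.4%). It reached beyond 2-fold higher for 44 probes and beyond 2-fold lower for 87. At the median SE, a probe needed a difference of 1.39 (2.62-fold) to be called if it was the only one, and 0.87 (1.83-fold) if 100 probes were called. A probe of median SE with a smaller difference would have gone uncalled, so a change of 1.5-fold was not detectable there.

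Signal level made little difference to this bound. The interval lay within 2-fold for 99.5% of the 5558 probes with a mean log2 signal under 7 and for 98.6% of the 1800 with 10 or more. Among the 9761 probes detected on all 4 arrays it did so for 99%. For dim probes the bound holds for the measured signal, background included. In the background-subtracted value table, floored at 20, the share within 2-fold was 71.2%.

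The known partners of ITGB4 did not pass the test, and their intervals bound what could have been missed. Plectin (PLEC), the linker from the ITGB4 tail to keratin, had 227 and 247 in ITGB4 cells, against 162 and 194 in untreated cells, at its brightest probe. The groups did not overlap, and the difference was 0.42 with an interval of 0.03 to 0.82. The other 7 kept PLEC probes, all of them dimmer, had differences from -0.14 to 0.07. CD151, the tetraspanin that associates with laminin-binding integrins, had 2577 and 2746 in ITGB4 cells at its brightest probe. Untreated cells had 2129 and 2797 there, and the groups overlapped (0.12, interval -0.29 to 0.54). A dimmer CD151 probe had 355 and 342 in ITGB4 cells, against 205 and 325 in untreated cells. At that probe the groups did not overlap (0.43, interval -0.04 to 0.90). Integrin alpha-6, the chain that pairs with ITGB4, has no probe listed under its symbol and was not analysed here.

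The receptor tyrosine kinases of this setting stood near the detection limit, with the exception of ERBB3. The HGF receptor MET had 94.6 and 104 in ITGB4 cells, against 107 and 84.5 in untreated cells (0.06, interval -0.35 to 0.47). ERBB2 had 95.4 and 109 in ITGB4 cells, against 109 and 75.8 in untreated cells (0.16, interval -0.29 to 0.61). The brightest EGFR probe had 99.1 and 98.5 in ITGB4 cells, against 106 and 104 in untreated cells (-0.09, interval -0.41 to 0.23). ERBB3, which melanocytic cells express, had 309 and 354 in ITGB4 cells, against 357 and 335 in untreated cells (-0.06, interval -0.41 to 0.29). For these 4 receptors a 2-fold change in measured signal lay outside the interval in both directions.

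Among the 11 kept subunits of other integrins, 0 were called, with a median difference of 0.08 and 8 above 0. ITGB5, the beta chain of a vitronectin receptor, had 1839 and 2138 in ITGB4 cells, against 1235 and 1504 in untreated cells. Its arrays did not overlap, and the difference was 0.54 (interval 0.16 to 0.93, adjusted p = 1 by limma). ITGAV, its alpha partner, had 82.6 and 99.7 in ITGB4 cells, against 117 and 110 in untreated cells (-0.32, interval -0.68 to 0.05). ITGB1, the common beta chain, had 4845 and 4098 in ITGB4 cells, against 4515 and 3919 in untreated cells, and the groups overlapped (0.08). ITGB1 is named here after its values were seen.

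COL8A1, a short-chain collagen, came next after ITGB4 in size. It had 445 and 364 in ITGB4 cells, against 177 and 228 in untreated cells. The difference was 1.00 ± 0.20 (SE, n = 2 per group), with an interval of 0.57 to 1.44 (limma, adjusted p = 1). THBS1, the matrix glycoprotein thrombospondin-1, had 386 and 217 in ITGB4 cells, against 172 and 169 in untreated cells. The groups did not overlap, and the ITGB4 replicates lay further apart than the untreated ones (0.76, interval 0.24 to 1.29). CSRP1, an actin-associated LIM protein, had 1795 and 1549 in ITGB4 cells, against 1158 and 1094 in untreated cells (0.57, interval 0.18 to 0.95). FASN, the fatty acid synthase, had 4567 and 4909 in ITGB4 cells, against 2904 and 3449 in untreated cells (0.58, interval 0.18 to 0.99). PHF5A, a spliceosome component, had 1438 and 1439 in ITGB4 cells, against 766 and 1232 in untreated cells (0.57).

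Untreated replicate 1 carried much of several of these differences. CFAP144P1 had 614 and 582 in ITGB4 cells, against 226 and 403 in untreated cells (0.99, interval -0.18 to 2.16). EXOC3L2 had 365 and 425 in ITGB4 cells, against 160 and 286 in untreated cells (0.88, interval -0.10 to 1.86). In both genes the untreated replicates lay further apart than the ITGB4 replicates. Of the genes detected on both arrays of a group whose groups did not overlap, the 11 of largest positive difference beside ITGB4 also held PCDH12 (0.66), OR5D18 (0.64) and GNLY (0.57). For 8 of the 11 the ITGB4 mean lay nearer untreated replicate 2 than replicate 1. The HGF arrays of several of these genes also split by replicate number, replicate 1 being the low-score array. CFAP144P1 had 184 to 235 on HGF replicates 1 and 558 to 601 on HGF replicates 2. For EXOC3L2 these were 151 to 172 and 339 to 388, and for OR5D18 144 to 146 and 245 to 254. GNLY had 79.7 to 84.7 and 154 to 158, beside 159 and 189 in ITGB4 cells. The cause was not tested.

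On the low side, the largest differences of any gene came from groups that overlapped. SERPINA3, a protease inhibitor, had a mean log2 signal of 6.23 ± 0.01 in ITGB4 cells and 7.16 ± 1.38 in untreated cells (SD, n = 2), a difference of -0.93 with an interval of -2.30 to 0.44. A PPP2R3A probe had 87.5 and 351 in ITGB4 cells, against 276 and 353 in untreated cells (-0.83, interval -1.77 to 0.10). Another kept PPP2R3A probe had 287 and 230 in ITGB4 cells, against 277 and 267 in untreated cells (-0.09, interval -0.51 to 0.34). Among genes detected on both arrays of a group whose groups did not overlap, the 12 largest negative differences follow. They are given here and in the next paragraph, not in order of size. SERPINA3 is named after its values were seen. TSC22D3, the glucocorticoid-induced leucine zipper, had 132 and 135 in ITGB4 cells, against 250 and 180 in untreated cells (-0.67, interval -1.32 to -0.01). FKBP14, a prolyl isomerase of the endoplasmic reticulum, had 947 and 825 in ITGB4 cells, against 1694 and 1066 in untreated cells (-0.60, interval -1.12 to -0.08). CTH, the enzyme that makes cysteine from cystathionine, had 302 and 280 in ITGB4 cells, against 501 and 347 in untreated cells (-0.52, interval -1.10 to 0.06). CHRNA7, a nicotinic receptor subunit, had 103 and 135 in ITGB4 cells, against 199 and 156 in untreated cells (-0.58, interval -1.02 to -0.13). In TSC22D3, FKBP14, CTH and CHRNA7 the 2 ITGB4 arrays lay below both untreated arrays, and untreated replicate 1 was the higher untreated array. In SIPA1L3 and IRAK2, described next, untreated replicate 2 was the higher one.

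In 3 of the 12 genes of largest negative difference under this selection, neither ITGB4 array detected the probe, while both untreated arrays did. IRAK2, a kinase of interleukin-1 receptor signalling, had 64.9 and 80.6 in ITGB4 cells, against 102 and 116 in untreated cells, or at least 1.19-fold lower in ITGB4 cells. GSAP was at least 1.15-fold lower, measured against the detection limit. The cation exchanger gene SLC24A4 was detected on 2 of the 10 arrays, both untreated, and was kept only through them. It had 67.2 and 73.8 in ITGB4 cells, 111 and 90.5 in untreated cells, and 70.3 to 86.5 on the HGF arrays. Its direction thus followed from the choice of probes. SIPA1L3 had 623 and 1179 in ITGB4 cells, against 1240 and 1381 in untreated cells (-0.61), and ran from -1.07 to -0.15 when single arrays were left out. CFAP61 had 205 and 210 in ITGB4 cells, against 427 and 222 in untreated cells (-0.57), and was -0.10 without untreated replicate 1. The others were the dynein light chain DYNLT3 (-0.55), ZC3H8 (-0.54) and ASB16 (-0.50). For 10 of the 12 the ITGB4 mean lay nearer untreated replicate 2. Of these 23 genes, 16 had an interval that excluded 0 (7 of 11 higher, 9 of 12 lower). They were ranked on this same difference, so their intervals describe them and support nothing.

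**Figure D3:**
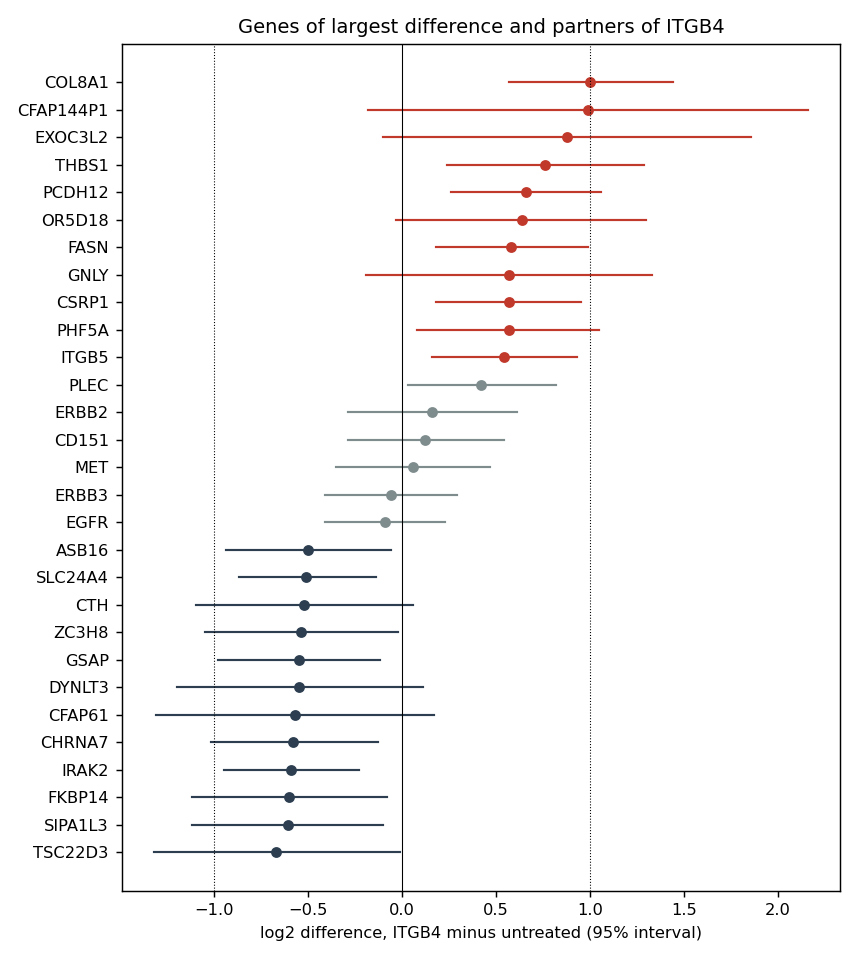
Log2 difference (ITGB4 minus untreated, points) with its 95% interval (lines) for the 11 genes of largest positive difference beside ITGB4 among those whose groups did not overlap (red), 6 partners of ITGB4 at their brightest probe (grey) and the 12 of largest negative difference by the same rule (dark blue). COL8A1 at 1.00 has the interval furthest above 0 (0.57 to 1.44), CFAP144P1 the widest (-0.18 to 2.16), and dotted lines mark 2-fold.

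Described over 26 gene lists with 578 kept genes, the only called member was ITGB4, in the hemidesmosome list. The list medians ran from -0.06 to 0.18, beside 0 over all 10596 kept genes, of which 49.8% lay above 0. In the hemidesmosome and laminin-332 list, 7 genes were kept, 1 was called and the median was 0.12, which was 0.29 against untreated replicate 1 and -0.01 against replicate 2. LAMB3, a laminin-332 chain named after its values were seen, had 124 and 122 in ITGB4 cells, against 101 and 112 in untreated cells (0.21). Among 11 basement membrane genes 0 were called (median 0.06), with the largest difference among those detected on all 4 arrays at LAMA4, a laminin chain, which had 291 and 243 in ITGB4 cells, against 219 and 231 in untreated cells (0.24).

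On the signalling side, among 27 kept receptor partners and adaptors 0 were called, the median was 0.05, and all 27 intervals lay within 2-fold. PIK3R1, the regulatory subunit of phosphoinositide 3-kinase, had 396 and 333 in ITGB4 cells, against 481 and 442 in untreated cells (-0.34, interval -0.79 to 0.11). Of 26 immediate early genes 0 were called (median -0.06, 7 above 0). EGR1, a growth factor-induced transcription factor named after its values were seen, had 222 and 79.3 in ITGB4 cells, against 329 and 159 in untreated cells (-0.78, interval -1.77 to 0.20), with a wide spread in both groups. Of 20 genes of ERK pathway output 0 were called (median 0). ETV4, a transcription factor induced by ERK signalling, had 235 and 217 in ITGB4 cells, against 171 and 180 in untreated cells (0.37, interval -0.04 to 0.78).

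Of 30 kept focal adhesion and actin genes 0 were called, with 7 whose ITGB4 arrays both lay above both untreated arrays and 1 with both below (median 0.08), beside 13.6% and 12.1% of all probes. CFL1, the actin-severing protein cofilin, had 3297 and 3131 in ITGB4 cells, against 1937 and 2684 in untreated cells (0.49, interval 0.09 to 0.90). ILK, the integrin-linked kinase, had 2864 and 3537 in ITGB4 cells, against 2346 and 2828 in untreated cells (0.31, interval -0.09 to 0.70). Among 24 genes of motility and matrix proteolysis 0 were called (median 0.07).

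In cholesterol and fatty acid synthesis, 0 of 25 kept genes were called, 18 lay above 0, and the median was 0.06. Both ITGB4 arrays lay above both untreated arrays in 8 and below both in 0, beside 13.6% and 12.1% of all probes. HMGCS1, which feeds the mevalonate pathway, had 244 and 213 in ITGB4 cells, against 173 and 192 in untreated cells (0.32, interval -0.03 to 0.67). The median was 0.12 against untreated replicate 2 and 0.03 against replicate 1. FDPS and DHCR7, later enzymes of the same route that are named after their values were seen, had differences of 0.29 and 0.26.

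The proliferation genes depended on which untreated array they were set against. Of 35 kept genes of G1/S and DNA replication 31 lay above 0 and 0 were called, with a median of 0.18. That median was 0.35 against untreated replicate 1 and -0.03 against untreated replicate 2, and the groups did not overlap in 2 of the 35 genes (5.71%), beside 25.7% of all probes. GINS2, a subunit of the replicative helicase, had 745 and 1005 in ITGB4 cells, against 596 and 722 in untreated cells (0.40, interval -0.17 to 0.97). TYMS, the thymidylate synthase named after its values were seen, had 1324 and 1576 in ITGB4 cells, against 776 and 1502 in untreated cells (0.42). For 41 genes of G2/M and mitosis the median was 0.25 against untreated replicate 1 and -0.17 against untreated replicate 2. The medians of 12 of the 26 lists changed sign between the untreated arrays. Beside these and the hemidesmosome list, the values against untreated replicate 1 and replicate 2 were -0.14 and 0.02 for the unfolded protein list, -0.08 and 0.02 for apoptosis regulators, -0.07 and 0.03 for NF-kB targets, and 0.07 and -0.11 for growth factors. They were 0.09 and -0.02 for oxidative phosphorylation, -0.06 and 0.03 for heat shock genes, -0.01 and 0.01 for hypoxia and glycolysis, -0.06 and 0.06 for epithelial markers, and 0.01 and -0.07 for fibroblast markers.

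The stress and inflammatory lists held 0 called genes. The unfolded protein and amino acid stress list had a median of -0.05 over 34 genes, with 11 above 0. DNAJB9, a chaperone of the endoplasmic reticulum, had 206 and 193 in ITGB4 cells, against 334 and 210 in untreated cells (-0.41). The interferon list had a median of -0.06 over 27 genes, with IRF9 at 242 and 260 in ITGB4 cells, against 382 and 274 in untreated cells (-0.37). In both genes untreated replicate 1 stood apart from the other 3 arrays. GADD45A, a stress-induced gene of the p53 list, had 464 and 407 in ITGB4 cells, against 620 and 555 in untreated cells (-0.43, interval -0.79 to -0.08). CDKN1A, the p21 cell cycle inhibitor of the same list, had 342 and 283 in ITGB4 cells, against 236 and 246 in untreated cells (0.37, interval -0.11 to 0.84). The medians were -0.03 for 25 apoptosis regulators, -0.05 for 17 NF-kB targets, -0.06 for 4 growth factors of the EGF and VEGF families, 0.01 for 27 genes of hypoxia and glycolysis, 0 for 23 heat shock genes, 0.05 for 30 genes of ribosome biogenesis, 0.01 for 32 of oxidative phosphorylation and 0.02 for 60 ribosomal proteins.

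The markers of the labelled cell type were present in both groups. Of the 24 melanocyte lineage genes on the array, 18 were kept and 0 were called. On both ITGB4 arrays 17 were detected, and on both untreated arrays also 17, counted separately. TYRP1, a melanosomal enzyme, had 9033 and 9400 in ITGB4 cells, against 11174 and 11347 in untreated cells (-0.29, interval -0.64 to 0.06). PMEL, a melanosome matrix protein named after its values were seen, had 2758 and 2220 in ITGB4 cells, against 4556 and 2609 in untreated cells (-0.48), so untreated replicate 1 was high and the groups overlapped. Of 22 epithelial markers 8 were kept, and CDH1 and EPCAM were not among them. On both ITGB4 arrays 5 were detected, and on both untreated arrays also 5, counted separately. Of 13 fibroblast markers 4 were kept, with 4 detected on both ITGB4 arrays and 3 on both untreated arrays. Of 15 immune markers 7 were kept, with 2 and 3 so detected. Some markers of other cell types were thus detected too, and 0 were called in any of these lists.

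The value that the series table gives for ITGB4 replicate 2 is another measurement than its scanner table. In the other 9 columns of that table, each column is a linear function of that array's own scanner values, with a largest residual of 0.0554 to 0.106. For ITGB4 replicate 2 the largest residual was 7750. Over the 14023 probes detected in any scanner table, the column had a Spearman correlation of 0.977 with its own scanner table, 0.981 with ITGB4 replicate 1, 0.982 with untreated replicate 2, and 0.941 to 0.97 with the other 7. Both versions carry the marks of the ITGB4 cells. ITGB4 was 5246 in the value-table version, brought to the same scale, beside 5023 in the scanner version, and neo1 and neo2 read 2714.5 and 4919.4 in the value table.

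Over 11815 probes detected in the scanner version, the versions differed by a median of 0.17 (log2), about as far as the 2 ITGB4 arrays themselves (0.16). The value-table version lay 0.09 from ITGB4 replicate 1, and the scanner version 0.15. From untreated replicate 2 the value-table version lay 0.13 and the scanner version 0.11. The scanner version, which the main fit used, was thus nearer to untreated replicate 2 than to ITGB4 replicate 1. Its Spearman correlation over the 14023 probes was 0.982 with untreated replicate 2 and 0.972 with ITGB4 replicate 1, and the cause was not tested. The versions were over 1 apart at 17 probes (0.144%), 13 of them higher in the value-table version. MAT2A, the enzyme that makes S-adenosylmethionine, had 390 in ITGB4 replicate 1, 197 in the scanner version and 406 in the value-table version of replicate 2, against 289 and 220 in untreated cells. SFPQ, an RNA-binding protein of paraspeckles, had 577, 252 and 596, against 413 and 334 in untreated cells. EIF3A, an initiation factor subunit, had 1924, 981 and 2864, against 2214 and 1867 in untreated cells. In these genes the scanner version of replicate 2 was the lowest of the 5 measurements.

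DBP, a transcription factor under circadian control, ran the other way, with 221 in ITGB4 replicate 1, 537 in the scanner version and 205 in the value-table version, against 346 and 503 in untreated cells. The inducible chaperone gene HSPA1B had 1926, 712 and 1747, against 1830 and 956 in untreated cells, which also lay apart. At other genes the versions sided with each other against ITGB4 replicate 1. IDO2 had 1133 in replicate 1, 2556 in the scanner version and 2742 in the value-table version, against 1636 and 3011 in untreated cells, and VN1R2 had 820, 1508 and 2172, against 879 and 2358. The value-table version is thus not a copy of replicate 1. The files do not show which version belongs to the labelled sample.

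The choice of version bears on what could be called. With the value-table version in place of the scanner version, 1 probe, ITGB4, was called. With that version and the low or high detection score of the arrays as a block, an alternative chosen after the data were seen, 7 of 14017 probes (0.0499%) were called, all higher in ITGB4 cells. Besides ITGB4 these were TMEM158 (1.14, adjusted p = 0.021), THBS1 (1.09, adjusted p = 0.021), COL8A1 (1.10, adjusted p = 0.023), LINC01465 (1.01, adjusted p = 0.026), CCND1 (0.98, adjusted p = 0.048) and HLA-DPA1 (0.85, adjusted p = 0.048), each by limma. With the scanner version and the same block, 1 probe was called.

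These genes differ in how far they rest on the version. COL8A1 had 445 in ITGB4 replicate 1, 364 in the scanner version and 483 in the value-table version of replicate 2, and all were above the untreated values of 177 and 228. THBS1 had 386, 217 and 377, against 172 and 169 in untreated cells, so all were again higher, the scanner version least so. CCND1, the G1 cyclin, had 446, 189 and 339, against 216 and 210 in untreated cells, and its scanner version lay below both untreated arrays. TMEM158 had 293, 150 and 284, against 151 and 135 in untreated cells, and its scanner version lay between them. HLA-DPA1, a class II antigen-presenting chain, had 199, 142 and 195, against 226 and 109 in untreated cells, which spanned the ITGB4 values. LINC01465 had 106, 60.2 and 88.4, against 84.8 and 55.3 in untreated cells, near or below the detection limit. In the scanner tables it was detected on 1 ITGB4 array and on 0 untreated arrays.

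**Figure D4:**
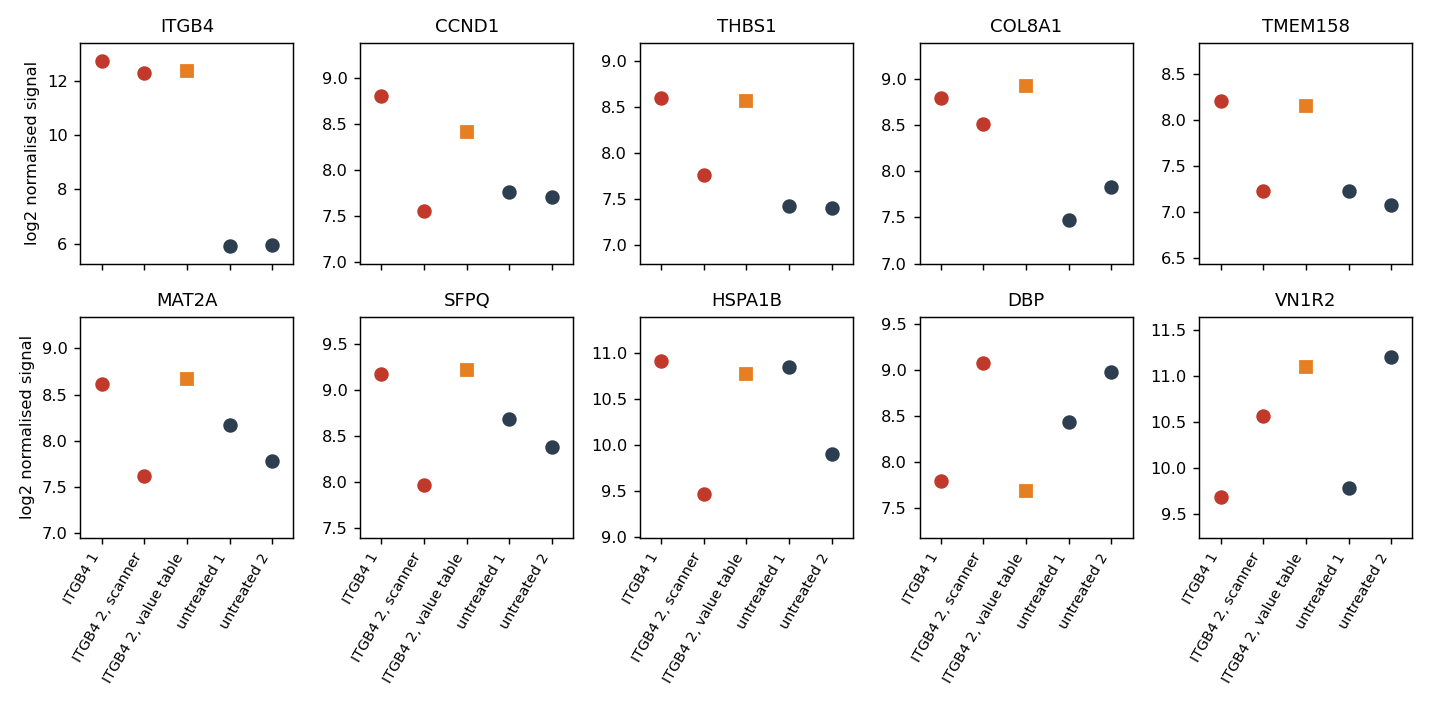
Log2 normalised signal of 10 genes in ITGB4 replicate 1, in the scanner and the value-table version of ITGB4 replicate 2 (orange squares for the value table), and in the 2 untreated arrays, each panel with its own range. The versions lie together for ITGB4 (5023 and 5246 before log2), while for MAT2A (197 and 406), SFPQ (252 and 596) and DBP (537 and 205) the value-table version lies nearer replicate 1.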

How the data were processed

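Total RNA from 10 cultures was labelled and hybridised to Illumina Human-8 V1 bead arrays. The authors deposited 1 BeadStudio 1.5.1.3 table per array, per the submitters' processing notes, with intensities that are neither background subtracted nor normalised, a detection score, and the number of beads as another column (median 26 to 32 per array). The value table that the authors deposited for the series holds intensities, background subtracted and rank-invariant normalised. Of 24136 probes, 22 controls and 9 lacking a value were set aside. Intensities were quantile normalised and brought to log2. A single model of 5 group means over 10 arrays was fitted in limma 3.58.1 (R 4.3.3; 5 residual and 8.16 prior degrees of freedom) and tested two-sided, with Benjamini-Hochberg adjustment over 14018 probes. The number of arrays limits the precision. Symbols were current for 11466 kept probes (10596 genes, 725 with several probes), each list member standing by its brightest probe.

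Genes named were ITGB4, its pair and partners, and called probes. To these came the 12 highest and 12 lowest differences with groups apart and detection on both arrays of a group, up to 2 per list, and the largest disagreements between the ITGB4 replicates and between versions of replicate 2. Other names are marked as chosen after seeing values. Members and lists were chosen with earlier results of these data known. "At least" folds take the mean of the brighter group over the detection limit, or the signal of the dimmer group where that is higher. The limit of 89.6 given above is the median over the arrays, and these folds are slightly smaller than that value would give. Sequences and genome positions were not used here.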

Additional observations from a re-analysis of the deposited data

Results flagged for a closer look

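The control probes neo1 and neo2, which lie outside the gene set compared in the report, gave a signal on every array. The lowest scanner values were those of ITGB4 replicate 2, 2146.7 for neo1 and 4253.1 for neo2, where the other 20 control probes reached at most 100.6. ITGB4 replicate 1 had 2822.4 and 5072.2, and the untreated arrays had 8580.5 and 11356.2 for neo1 and 12085 and 16779 for neo2.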

How the results depend on the processing

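The ITGB4 difference stayed called under all settings run, from 5.03 (signals floored at 179) to 8.13 (value table), with a highest adjusted p of 0.0016. Under other scalings, filters, models and left-out arrays the count of calls was 1, except without ITGB4 replicate 2, where it was 2 and added PPP2R3A (-1.84, adjusted p = 0.044), so that leaving out single arrays gave 1 to 2. That PPP2R3A probe then rests on the 87.5 of ITGB4 replicate 1 alone, and another kept PPP2R3A probe had 287 on that array. Under alternatives chosen after seeing the data the count of calls was 7 with the value-table version and the score block, and 3 with the control probes in the fit. Counts at an unadjusted p under 0.05 ran from 46 (without untreated replicate 1) to 485 (without untreated replicate 2), and were 920 with the value-table version and the score block. The share of intervals within 2-fold ran from 71.2% (value table) to 99.8%, and from 91.4% to 99.5% when single arrays were left out.

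Replicate numbers are shared by the groups. Deviations of same-numbered arrays correlated at 0.341 for ITGB4 and untreated, and from -0.0631 to 0.661 over the 10 pairs of groups. Of these, 2 lay under 0.1 (-0.0631 for ITGB4 and HGF 1 h, 0.0616 for HGF 1 h and 24 h), so the numbers were not taken as pairs. Differences shared by same-numbered arrays thus stayed in the spread of the main fit. With the replicate block 1 probe was called, ITGB4 at 6.56, and 484 had an unadjusted p under 0.05. The median SE was 0.15 with this block and 0.18 in the main fit. At the median, the intervals and the sizes that could be missed are therefore wider above than with the block. The block changed no other call.

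Some uncalled genes among the 77 run through the settings changed sign. HLA-DPA1 was -0.09 with the floor, and MET was -0.36 and ERBB2 -0.40 on the value table. MET was -0.03 with the value-table version, and CD151 was -0.04 with the score block. Genes named for disagreement between replicates or versions changed sign too. With the value-table version, EIF3A went from -0.57 to 0.21 and HSPA1B from -0.18 to 0.47. When single arrays were left out, MET ran from -0.11 to 0.23, ERBB2 from -0.10 to 0.43 and ERBB3 from -0.16 to 0.04. The brightest CD151 probe ran from -0.07 to 0.32. In the same settings CCND1 ran from -0.17 to 1.06, HLA-DPA1 from -0.43 to 0.62 and LINC01465 from -0.19 to 0.62. MAT2A ran from -0.35 to 0.63, SFPQ from -0.56 to 0.63 and DBP from -0.92 to 0.36. The PPP2R3A probe at -1.84 without ITGB4 replicate 2 ran up to 0.17, and the other PPP2R3A probe from -0.25 to 0.08.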
